A study of Mus musculus with 2 samples.

Results

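The Toll-like receptors and the RP105 pair are pattern-recognition genes of the innate immune system, and 10 of them were followed here among the 45318 genes of the deposited count table: Tlr1, Tlr2, Tlr4, Tlr6, Tlr7, Tlr8, Tlr9, Tlr13, Cd180 and Ly86. The rows were found by Ensembl identifier, and all 10 were present. The list was chosen by name with the counts of these genes in both libraries already known, so their differences are given as a description. The samples were mouse (strain C57Bl/6) leukaemia cells with the MLL/AF9 oncogene, a gene fusion found in acute myeloid leukaemia, and with GFP. Mice with this leukaemia received vehicle or brequinar, an inhibitor of dihydroorotate dehydrogenase in the synthesis of pyrimidines, and GFP-positive cells were sorted from their bone marrow. Each treatment had 1 library, so differences between treatments could not be set against a spread between replicates and carry no p-value. The labels give no age, sex, dose, duration of treatment or number of mice per library.

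Toll-like receptors are membrane proteins with leucine-rich repeats outside and a TIR domain inside the cell, and most of them signal through the adaptor Myd88. Tlr1, Tlr2, Tlr4 and Tlr6 sit at the cell surface and sense microbial lipids, with Tlr2 pairing with Tlr1 or Tlr6. Tlr7, Tlr8, Tlr9 and Tlr13 sit in endosomes and sense nucleic acids. Cd180, also called RP105, resembles Tlr4 outside the cell but lacks a TIR domain. It is held at the surface by Ly86 (MD-1), as Tlr4 is held by Ly96 (MD-2), and it is known for its role in B cells and as a brake on Tlr4 in myeloid cells.

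The depth over genes was 47935476 counts for vehicle and 47950714 for brequinar. Values are CPM (the share of a library's counts, scaled by TMM), and a single count was worth 0.0202 and 0.0215 CPM. Pairs of values are given in the order vehicle, brequinar. Ratios are brequinar over vehicle, log2 ratios carry a prior count of 2, and "higher" or "lower" is used of genes that differed by 2-fold or more. The intervals given are exact, at the 95% level, and hold counting error alone, without variation between mice or preparations. Amplified reads that carry no molecular identifier are not separate molecules, so even the counting error may be larger than given. The sorted cells carried myeloid markers in both libraries, with Ly6c2 (a surface protein of monocytes and granulocyte precursors) at 733 and 831 CPM and Csf1r (the receptor of macrophage colony-stimulating factor) at 56.2 and 76.0 CPM. In bulk RNA, more cells of a type and more RNA per cell cannot be told apart.

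The stretches of DNA just before the genes with the largest differences are shown first, since these genes of a shared recognition system differed in opposite directions. They are from RefSeq (GRCm38.p6), and only bases before every annotated start site are printed. Capitals mark the letters AGGAAG, a core bound by Ets factors including the myeloid factor PU.1, read on either strand. The first pair was higher in the brequinar library and the last 3 were lower.
Tlr13 (chrX:106143025-106143203, plus strand): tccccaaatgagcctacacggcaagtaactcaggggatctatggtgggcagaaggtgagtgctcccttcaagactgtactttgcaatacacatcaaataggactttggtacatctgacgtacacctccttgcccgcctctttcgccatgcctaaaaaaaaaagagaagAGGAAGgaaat
Tlr2 (chr3:83841768-83841858, minus strand): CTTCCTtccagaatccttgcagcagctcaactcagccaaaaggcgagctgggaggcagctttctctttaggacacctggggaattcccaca
Ly86 (chr13:37345095-37345207, plus strand): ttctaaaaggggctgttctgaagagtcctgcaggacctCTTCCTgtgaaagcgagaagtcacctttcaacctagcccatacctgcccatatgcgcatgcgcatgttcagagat
Cd180 (chr13:102693297-102693546, plus strand): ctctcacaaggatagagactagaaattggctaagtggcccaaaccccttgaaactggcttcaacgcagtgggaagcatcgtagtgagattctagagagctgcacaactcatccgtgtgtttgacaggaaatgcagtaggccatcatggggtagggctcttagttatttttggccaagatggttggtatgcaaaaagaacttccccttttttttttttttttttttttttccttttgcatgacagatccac
Tlr9 (chr9:106222348-106222597, plus strand): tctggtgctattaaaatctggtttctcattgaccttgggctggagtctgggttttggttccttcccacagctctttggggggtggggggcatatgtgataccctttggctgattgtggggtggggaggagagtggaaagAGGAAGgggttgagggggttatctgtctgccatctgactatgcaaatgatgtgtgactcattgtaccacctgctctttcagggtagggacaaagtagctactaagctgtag

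In the full windows of 300 bases, from 250 before to 50 after the most upstream RefSeq start, AGGAAG occurred in 6 of the 8 members with a window. It occurred in 35.4% of all 32851 windows and in 34.2% of the 11103 windows of measured genes. Cd180 and Tlr8 were the members without it, so it was found beside genes that were higher, lower and within 2-fold. TTGCNNAA, a shape bound by C/EBP factors, was found for Tlr8 and Tlr13 and in 10.8% of all windows. GAAANNGAA, a repeat bound by interferon regulatory factors, was found for Tlr8 and Ly86 and in 8.56% of all windows. GGGANTTTC, the only form of the NF-kB site that was searched for, was found in no member's window and in 1.11% of all windows. Other forms of that site were not looked for, and the run gggaattccc printed for Tlr2 is one that this pattern cannot match. Both strands were searched for each, no match overlapped one of another motif, and a match is a run of letters, not a site shown to be bound. Tlr4 and Tlr7 had no entry in the table used.

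The brequinar library held more Tlr13 and Tlr2 RNA and less Ly86, Tlr9 and Cd180 RNA than the vehicle library. Tlr13, the receptor for bacterial ribosomal RNA, was 7.01-fold higher, and Ly86 was 8.36-fold lower. Of the 10 genes, 3 were higher (Tlr13, Tlr2 and Tlr8), 3 were lower (Ly86, Tlr9 and Cd180) and 4 lay within 2-fold (Tlr1, Tlr4, Tlr6 and Tlr7). All 10 had a mean of at least 1 CPM. Among all 11504 genes with such a mean, 6.45% were higher, 4.40% were lower and 10.8% were called in either direction. The members were chosen with these ratios known, so nothing is read from their share. Their median log2 ratio was 0.28, beside 0.00029 over all measured genes, and it hides ratios from -3.05 to 2.81.

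**Figure D1:**
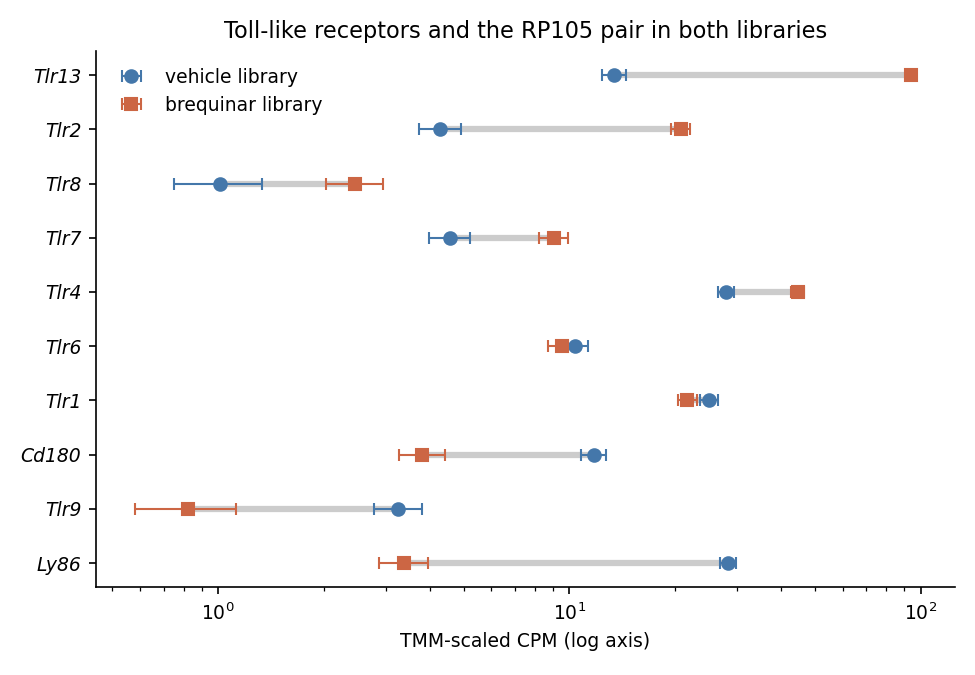
TMM-scaled CPM (log axis) of the 10 genes in the vehicle library (circles) and the brequinar library (squares), ordered by log2 ratio, with bars for exact 95% Poisson intervals (counting error only). Intervals of the libraries overlap for Tlr6 and do not overlap for the other genes, among which Tlr13 moves furthest right and Ly86 furthest left.

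Among the surface receptors, Tlr2 stood apart from both of its partners. Tlr2, the shared chain of the lipopeptide receptors (ENSMUSG00000027995.10; GRCm38 chromosome 3, 83836272 to 83841767, minus strand), had 212 and 964 counts, or 4.28 and 20.8 CPM. Its ratio was 4.84 (interval 4.17 to 5.65) with a log2 ratio of 2.27, and 206 of the 11504 measured genes had a higher one. Tlr1, the partner for triacylated lipopeptides, had 1237 and 1007 counts, or 25.0 and 21.7 CPM, a ratio of 0.867 (interval 0.797 to 0.943). Tlr6, the partner for diacylated lipopeptides, had 514 and 444 counts, or 10.4 and 9.56 CPM, a ratio of 0.920 (interval 0.809 to 1.05). The brequinar library was thus high for Tlr2, while Tlr1 and Tlr6 lay within 2-fold and the interval of Tlr6 included a ratio of 1.

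Tlr1 (ENSMUSG00000044827.7) and Tlr6 (ENSMUSG00000051498.5) lie side by side on the minus strand of chromosome 5 (GRCm38; 64924679 to 64933563 and 64952031 to 64960097), 18468 bases apart. Of the 101-base stretches in their annotated transcripts, 7.80% of those of Tlr1 and 7.01% of those of Tlr6 occur in the other gene. Reads that lie wholly in such stretches cannot be assigned, so both genes can be undercounted. Apart from this pair, the only member that shared such stretches with another gene was Cd180 (1.89%, with Mast4). Mast4 lies over Cd180 on the opposite strand and had 3 and 6 counts.

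Per kilobase of annotated exon, the balance between the chains of the lipopeptide receptors differed between the libraries. In the vehicle library Tlr2 stood at 0.190 times the level of Tlr1 (interval 0.164 to 0.220) and 0.510 times that of Tlr6 (interval 0.433 to 0.600). In the brequinar library it stood at 1.06 times Tlr1 (interval 0.972 to 1.16) and 2.68 times Tlr6 (interval 2.40 to 3.01). Tlr1 over Tlr6 was 2.68 and 2.53, with intervals that overlap (2.42 to 2.98 and 2.26 to 2.83). The shared chain was thus the scarcer transcript in vehicle, while in brequinar it stood above Tlr6 and its interval against Tlr1 included 1.

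Tlr4, the receptor of bacterial lipopolysaccharide (ENSMUSG00000039005.10; chromosome 4, 66827584 to 66930284, plus strand), had 1381 and 2076 counts, or 27.9 and 44.7 CPM. Its ratio was 1.60 (interval 1.495 to 1.72), below the 2-fold limit. Ly96, which binds the lipid on behalf of Tlr4, stood at 2.71 and 1.81 CPM, a ratio of 0.668 (interval 0.502 to 0.884). Cd14, which hands lipopolysaccharide to that complex, stood at 11.4 and 21.1 CPM, a ratio of 1.85 (interval 1.66 to 2.05). All 3 thus lay within 2-fold, with the intervals of Tlr4 and Cd14 above a ratio of 1 and that of Ly96 below it. Per kilobase, Tlr4 over Ly96 was 1.89 in vehicle (interval 1.59 to 2.28) and 4.54 in brequinar (interval 3.65 to 5.72).

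Both genes of the RP105 pair were lower in the brequinar library. Ly86, the small secreted partner (ENSMUSG00000021423.5; chromosome 13, 37345208 to 37419036, plus strand), had 1398 counts in vehicle and 157 in brequinar, or 28.3 and 3.38 CPM. It was 8.36-fold lower (interval 7.08 to 9.92), with a log2 ratio of -3.05, and 29 of the 11504 measured genes had a lower one. Cd180 (ENSMUSG00000021624.6; chromosome 13, 102693558 to 102739629, plus strand) had 580 and 177 counts, or 11.7 and 3.81 CPM. It was 3.08-fold lower (interval 2.60 to 3.66), with a log2 ratio of -1.61.

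The difference in Ly86 exceeded that in Cd180, as their intervals do not overlap. Per kilobase, Cd180 over Ly86 was 0.334 in vehicle (interval 0.303 to 0.368) and 0.908 in brequinar (interval 0.728 to 1.13). Tlr4 over Cd180 was 1.93 in vehicle (interval 1.75 to 2.13) and 9.52 in brequinar (interval 8.16 to 11.2). The excess of the lipopolysaccharide receptor over its homologue without a TIR domain was thus larger in the brequinar library. Levels per kilobase of Ly86 depend on the gene model: its exons span 3632 bases together, and its principal transcript has 1134, which would put it at 24.9 and 2.98 CPM per kilobase in place of 7.78 and 0.931. The ratio between libraries does not depend on this length.

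**Figure D2:**
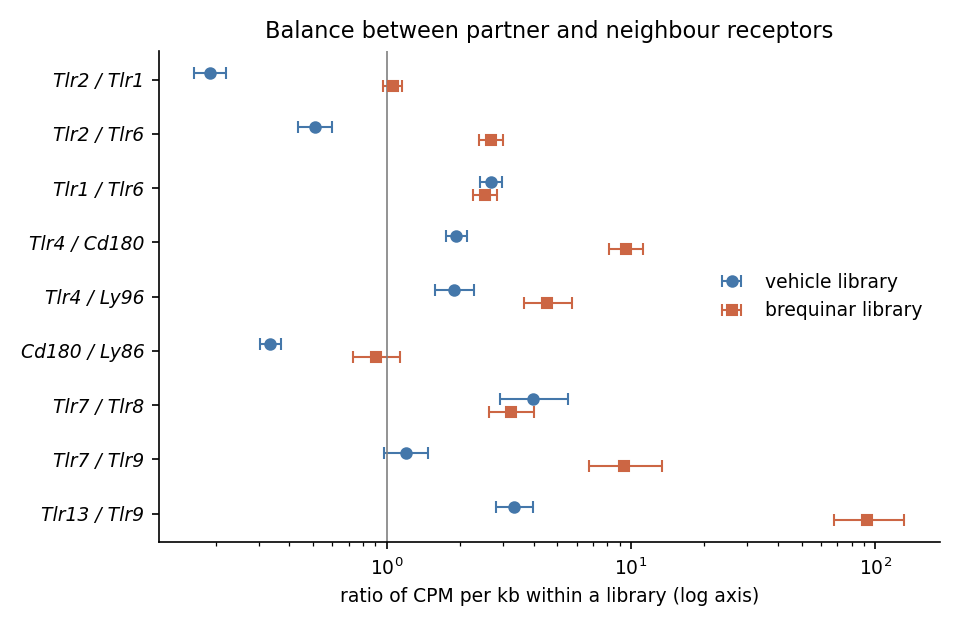
Ratio of CPM per kilobase of exon between pairs of genes within each library (log axis), with exact 95% intervals (counting error only) and a vertical line at 1. Tlr1 over Tlr6 and Tlr7 over Tlr8 have overlapping intervals in the vehicle (circles) and brequinar (squares) libraries, and the other pairs drawn do not.

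The endosomal receptors differed in both directions. Tlr13 (ENSMUSG00000033777.3; chromosome X, 106143204 to 106160493, plus strand) had 664 counts in vehicle and 4369 in brequinar, or 13.4 and 94.1 CPM. Its ratio was 7.01 (interval 6.46 to 7.62), with a log2 ratio of 2.81, and 118 of 11504 measured genes had a higher one. Tlr9, the receptor for unmethylated CpG DNA (ENSMUSG00000045322.10; chromosome 9, 106222598 to 106226883, plus strand), had 161 and 38 counts, or 3.25 and 0.818 CPM. It was 3.98-fold lower (interval 2.78 to 5.82), and 91 measured genes had a lower log2 ratio. Tlr13 was thus high and Tlr9 low in the brequinar library.

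Tlr7, a receptor for single-stranded RNA, had 226 and 419 counts, or 4.57 and 9.02 CPM. Its ratio of 1.97 (interval 1.68 to 2.33) lay just under the 2-fold limit. Tlr8, its closest relative, had 50 and 114 counts, or 1.01 and 2.45 CPM, a ratio of 2.43 (interval 1.73 to 3.46). The interval of Tlr8 reached below 2-fold and overlapped that of Tlr7, so the call separates them and the counts do not. Tlr7 (ENSMUSG00000044583.10) and Tlr8 (ENSMUSG00000040522.5) lie next to each other on the minus strand of chromosome X (167304929 to 167330558 and 167242696 to 167264329), 40600 bases apart. Per kilobase, Tlr7 over Tlr8 was 3.97 (interval 2.91 to 5.51) and 3.23 (interval 2.62 to 4.01).

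Tlr7 and Tlr9 are carried to endosomes by the same chaperone, Unc93b1, and their balance differed between the libraries. Per kilobase, Tlr7 over Tlr9 was 1.20 in vehicle (interval 0.973 to 1.47), where the intervals of their levels overlapped, and 9.39 in brequinar (interval 6.73 to 13.5). Tlr13 over Tlr9 was 3.33 in vehicle (interval 2.80 to 3.98) and 92.9 in brequinar (interval 67.6 to 131). Unc93b1 itself stood at 178 and 203 CPM, a ratio of 1.14 (interval 1.10 to 1.17).

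The 3 members on chromosome X (Tlr7, Tlr8 and Tlr13) all had ratios above 1. Across the 358 measured genes of that chromosome the median log2 ratio was -0.02, with 20 higher (5.59%) and 14 lower. Xist, the RNA of the inactive X chromosome, stood at 294 and 120 CPM, and the Y-linked gene Ddx3y at 0.626 and 2.20 CPM. The libraries therefore differed in sex-linked RNA, and its part in the X-linked receptors was not tested.

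Ordered by CPM per kilobase, the vehicle library ran from Ly86 (7.78) and Tlr1 (7.47) through Tlr4 (5.02), Tlr13 (3.12), Tlr6 (2.79), Cd180 (2.60), Tlr2 (1.42), Tlr7 (1.12) and Tlr9 (0.936) to Tlr8 (0.282). Neighbours whose counting intervals overlap in that order were Ly86 and Tlr1, Tlr13 and Tlr6, Tlr6 and Cd180, Tlr2 and Tlr7, and Tlr7 and Tlr9. The brequinar library ran from Tlr13 (21.9) through Tlr4 (8.04), Tlr2 (6.89), Tlr1 (6.48), Tlr6 (2.56), Tlr7 (2.21), Ly86 (0.931), Cd180 (0.845) and Tlr8 (0.684) to Tlr9 (0.235). There the overlapping neighbours were Tlr2 and Tlr1, Tlr6 and Tlr7, Ly86 and Cd180, and Cd180 and Tlr8. This order depends on the gene model. With the longest transcript in place of all exons, Cd180 stood at 4.42 and 1.44 CPM per kilobase, above Tlr13 (3.31) and Tlr6 (2.83) in vehicle and above Ly86 (1.26) in brequinar. Of the summed CPM per kilobase of the 8 Toll-like receptors among the members, Tlr13 held 14.1% in vehicle and 44.6% in brequinar, and Tlr1 held 33.7% and 13.2%.

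Of the 4 other mouse Toll-like receptors, only Tlr5 had a mean of at least 1 CPM. Tlr5, the flagellin receptor, had 16 and 89 counts, or 0.323 and 1.92 CPM, a ratio of 5.93 (interval 3.46 to 10.8), and was called higher. Its mean passed the filter through the brequinar library alone, and it dropped out with a minimum of 5 CPM. Tlr3, the receptor for double-stranded RNA, had 3 and 2 counts. Tlr12, a receptor for a protozoan profilin, had 10 and 5. Tlr11, its relative, had 0 and 3, where a count of 0 allows up to 0.0606 CPM (3 counts). No difference could be resolved at this depth for Tlr3, Tlr11 and Tlr12, whose intervals all include a ratio of 1.

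Around the members, the nearest measured gene on each side gave 16 genes outside the list, of which 3 were higher and none was lower, beside 6.45% higher and 4.40% lower over all measured genes. The 3 were Klf3 beside Tlr1 (19.1 and 42.0 CPM), Tmsb4x beside Tlr8 (4704 and 10350.4 CPM) and Atp7a beside Tlr13 (3.48 and 8.18 CPM). Around the members that were lower, Ly86 lay between F13a1 (log2 ratio -0.74) and Rreb1 (-0.24), Cd180 between Pik3r1 (-0.10) and Srek1 (0.08), and Tlr9 between Twf2 (0.29) and Alas1 (0.05). No neighbour of a lower member was called.

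Among the co-receptors, chaperones, enzymes, adaptors and regulators that act with the receptors, most genes lay within 2-fold. These lists were drawn up with earlier results of the same libraries known, and their counts are read beside 6.45% higher and 4.40% lower over all measured genes. Of 14 measured co-receptors, chaperones and trafficking proteins, 2 were higher, none was lower and the median log2 ratio was 0.15. The higher genes were Cd36, a scavenger receptor that assists Tlr2 (0.384 and 2.52 CPM), and Slc15a3, an endolysosomal transporter of peptides and histidine (1.41 and 5.66 CPM). Cd36 passed the filter through the brequinar library alone. Next in size came Cd14 and Ly96, given above, and Tmem9b (55.7 and 73.8 CPM). Hsp90b1, the chaperone gp96 that folds most Toll-like receptors, stood at 648 and 640.3 CPM, and its helper Cnpy3 at 115 and 89.6 CPM.

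Of 27 measured adaptors, kinases and ubiquitin ligases, 1 was higher and none lower, with a median log2 ratio of 0.17. Map3k8, the kinase that links these receptors to ERK, was higher (1.27 and 3.83 CPM). Pik3ap1, an adaptor to phosphoinositide 3-kinase, was next at 49.8 and 98.96 CPM, a ratio of 1.99 (interval 1.89 to 2.09). Irf7 and Irf5, transcription factors of the endosomal receptors, had ratios on opposite sides of 1, with Irf7 at 10.2 and 19.6 CPM and Irf5 at 13.4 and 7.06 CPM. Irak2, a kinase of the Myd88 complex, stood at 21.9 and 39.7 CPM, and Myd88 itself at 56.8 and 87.1 CPM, a ratio of 1.53 (interval 1.46 to 1.61). The 27 genes ran from -0.92 to 1.56 on the log2 scale. The 10 members were chosen with their ratios known, so their span is not compared with this one.

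Of 14 measured negative regulators, 1 was higher and 1 lower, with a median log2 ratio of 0.32. Lyn, a Src family kinase that restrains and also conveys these signals, was higher (99.5 and 208 CPM; ratio 2.09, interval 2.02 to 2.17). Sarm1, a TIR-domain protein that hydrolyses NAD, was lower (3.17 and 1.53 CPM). Nfkbia, which encodes the NF-kB inhibitor, stood at 30.8 and 50.6 CPM, Socs1 at 1.60 and 2.60 CPM, and Sigirr, an inhibitory receptor with a TIR domain, at 20.6 and 13.02 CPM. Irak3, the inhibitory kinase of the Myd88 complex, stood at 44.3 and 58.0 CPM.

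Among endolysosomal enzymes that trim these receptors or digest nucleic acids, 1 of 10 measured genes was higher and 1 lower, and the median log2 ratio was -0.51. Lgmn, an endopeptidase also called legumain, was higher (2.49 and 5.38 CPM). Dnase2a, a lysosomal nuclease that digests DNA, was lower (116 and 54.4 CPM; 2.13-fold lower, interval 2.03 to 2.23). Pld4, an exonuclease of the same compartment, stood at 69.0 and 41.6 CPM, Ctss (cathepsin S) at 22.9 and 14.2 CPM, and Rnaset2b, an RNase, at 9.32 and 5.83 CPM. Rnaset2b has a close copy, Rnaset2a (14.0 and 10.3 CPM), so the share of reads in each is uncertain. Of the 10 genes, 8 had a log2 ratio below 0.

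Genes that these receptors are known to induce in myeloid cells were mostly higher in the brequinar library. Of 21 listed, 11 had a mean of at least 1 CPM, and 9 of these were higher, none was lower and the median log2 ratio was 1.32. Over all measured genes, 6.45% were higher and 4.40% lower. A gene can pass that filter through its high library alone, and the other 10 were Il1a, Il6, Il10, Il12b, Cxcl1, Ccl5, Ifnb1, Nos2, Cd40 and Acod1. Among the 10, Acod1, which encodes the enzyme that makes itaconate, had 2 and 80 counts (ratio 42.6, interval 11.4 to 358), and the cytokine gene Il1a had 1 and 16 (ratio 17.0, interval 2.65 to 715). Among the 11 measured genes, the largest log2 ratios were those of the cytokine gene Il1b (1.496 and 9.92 CPM) and the chemokine gene Cxcl2 (0.808 and 5.47 CPM). They were followed by Ptgs2, which encodes cyclooxygenase 2 (1.48 and 4.46 CPM), Nfkbiz, a nuclear NF-kB cofactor (2.45 and 7.10 CPM), and Marcksl1 (18.6 and 48.5 CPM). The 2 measured genes within 2-fold were the chemokine genes Ccl3 (24.9 and 18.9 CPM, ratio 0.762) and Ccl4 (2.63 and 3.19 CPM, ratio 1.21). Among the genes below the filter, Ccl5 had 25 and 31 counts and Cd40 had 7 and 7. Il12b and Ifnb1 had no counts in either library, and Il6, the interleukin 6 gene, had 3 and 1. Many of these genes respond to other signals as well, and which signal moved them was not tested.

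**Figure D3:**
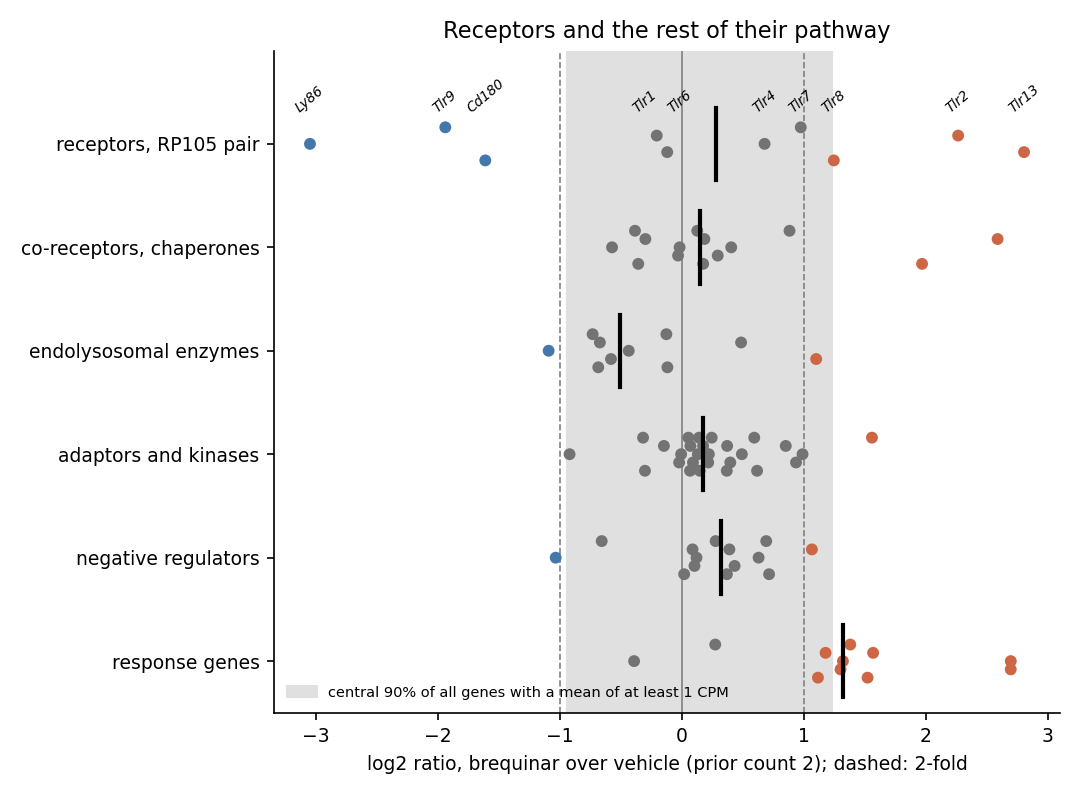
Log2 ratio (brequinar over vehicle) of each gene with a mean of at least 1 CPM in 6 lists, with orange for at least 2-fold higher, blue for at least 2-fold lower, grey for within 2-fold, black bars for list medians, dashed lines at 2-fold and a grey band for the central 90% of all measured genes (-0.94 to 1.23). The receptors and the RP105 pair, chosen with their ratios known, spread from -3.05 to 2.81. The adaptors and kinases run from -0.92 to 1.56, and the response genes centre on 1.32.

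Several members are also expressed by blood cells other than leukaemic myeloid cells. Both libraries came from a GFP gate, and the markers of those cells were read in the same libraries. Counts of markers are read beside 6.45% higher and 4.40% lower over all measured genes. A marker can pass the filter through its high library alone. Resident macrophage markers were higher in 10 of 12 measured cases and lower in none. Of the higher ones, C1qa, C1qc, Mrc1, Cd163 and Spic passed the filter through the brequinar library alone. All 16 markers summed to 647 and 987 CPM. The 2 within 2-fold were Vcam1 (370 and 496 CPM) and Adgre1 (221 and 225 CPM). These and Slc40a1 (42.0 and 134 CPM, higher) were abundant in both libraries and made up most of that sum. Without these genes, a choice made after the values were seen, the other 13 markers summed to 14.4 and 131 CPM. Hmox1 held the largest part of this smaller sum (6.37 and 54.3 CPM). C1qa, a complement gene of macrophages, stood at 0.990 and 8.16 CPM, and Vsig4 was the only marker of the list at 0 (vehicle library). Tlr13 and Tlr2 were higher in the same library, and the part of these cells in that difference was not tested. Maturing neutrophil markers were higher in 13 of 14 cases (1656 and 24406 CPM summed, none at 0), including Ly6g at 2.97 and 20.8 CPM, and their part was not tested either.

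For Ly86, Cd180 and Tlr9, which B cells and plasmacytoid dendritic cells also express, the markers of those cells differed in both directions. Of 7 measured B and plasma cell markers, 1 was higher and 1 lower, the sum of all 14 was 38.8 and 26.7 CPM, and none was at 0. Ms4a1 (CD20), which defines B cells, stood at 0.566 and 0.775 CPM. Cd79a stood at 2.57 and 3.62 CPM. Cd79b, with Cd79a a chain of the B cell receptor, was the lower gene (26.2 and 9.86 CPM). It made up most of the sum in vehicle, and its difference exceeded that of the sum. Of the 7 measured markers, 4 had a log2 ratio above 0, and the median was 0.29. Of 6 measured plasmacytoid dendritic cell markers, 2 were higher and 1 lower (99.7 and 129 CPM summed over 10, none at 0), and Siglech, which defines these cells, stood at 0.505 and 1.81 CPM. The other higher gene, Runx2 (35.8 and 71.9 CPM), had a ratio of 2.01 and fell short of 2-fold under all 4 other scalings, which left 1 higher. The lower gene was Klk1 (2.28 and 0.344 CPM). Runx2 and Bst2 (57.0 and 50.2 CPM, within 2-fold) made up most of the sum in both libraries.

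Monocyte markers were split like the members, with 3 of 13 higher and 4 lower (1117 and 1084 CPM summed, none at 0). The lower genes were Ms4a4c, Irf8, Ms4a6c and Fn1, and the higher ones were Treml4, Nr4a1 and Cd300e. Irf8, a transcription factor of monocytes and dendritic cells, stood at 51.5 and 13.8 CPM, and Ms4a6c at 135 and 46.7 CPM. Conventional dendritic cell markers (3 measured, 1 higher and 1 lower, 7.44 and 6.82 CPM summed over 8) and T and NK cell markers (1 measured, Nkg7, which was lower; 23.5 and 10.9 CPM summed over 10) were low, with Cd3e at 0.0808 and 0.0646 CPM. All 13 measured erythroid markers were higher (84.0 and 295 CPM summed over 14), as were both measured platelet markers (2.87 and 9.60 CPM summed over 7). Several of these genes passed the filter through the brequinar library alone. The platelet integrin gene Itga2b (ratio 2.16) fell short of 2-fold with both scalings by library totals, which left 1 higher. Their part in the receptors' differences was not tested.

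**Figure D4:**
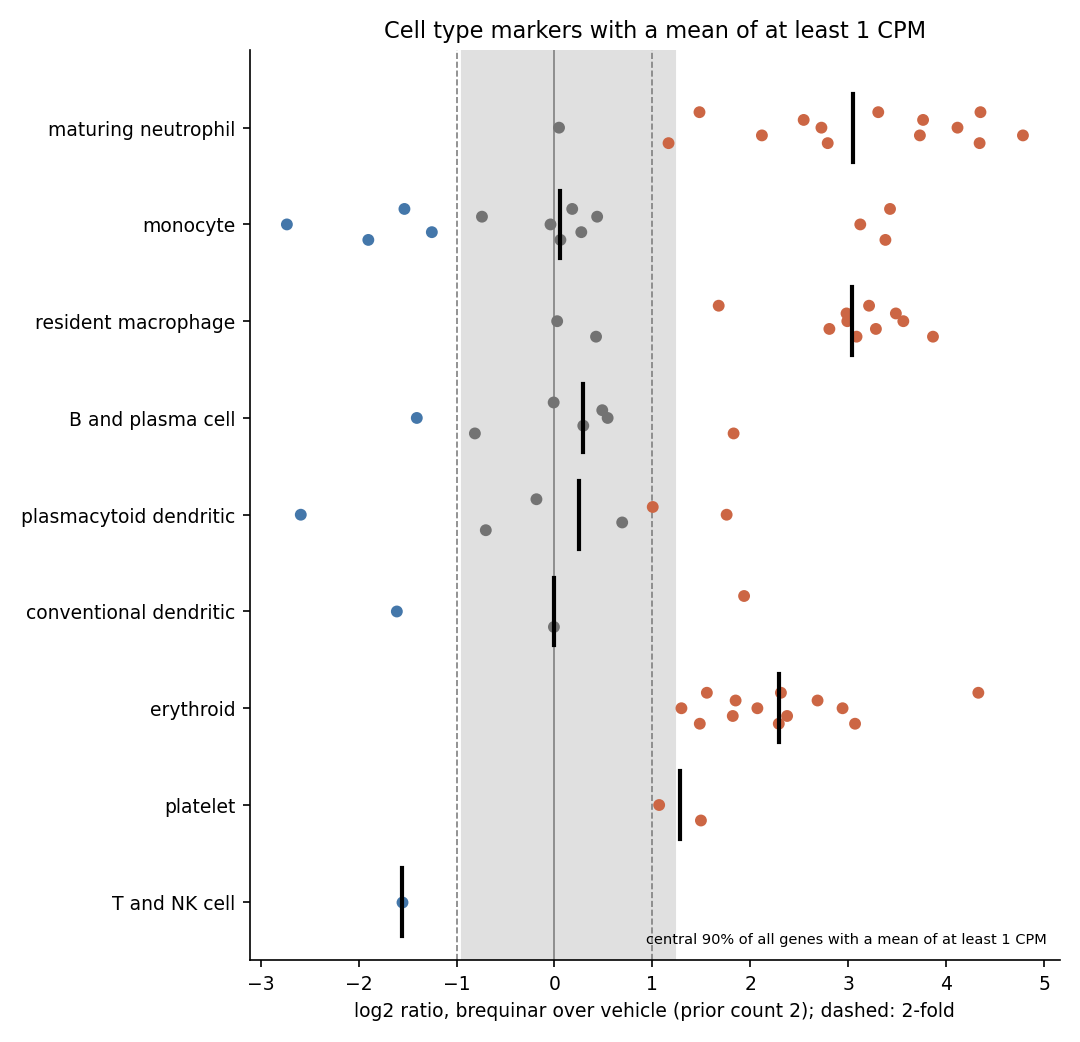
Log2 ratio (brequinar over vehicle) of markers with a mean of at least 1 CPM for 9 cell types, with orange for at least 2-fold higher, blue for at least 2-fold lower, grey for within 2-fold, black bars for list medians and a grey band as the central 90% of all measured genes. Neutrophil, macrophage and erythroid markers lie mostly to the right of 2-fold, and monocyte markers lie on both sides.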

How the data were processed

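Poly(A)-selected, strand-preserving libraries were read as paired ends of 101 bases, per the labels' protocols. The authors deposited raw read counts for each gene, as whole numbers with no scaling. The submitters' processing notes name STAR 2.4.2a, Picard 1.99 and 2.2.4 and the build mm10. How reads were counted, with which strand option and on which annotation, is not given in the sources used here, so reads of overlapping genes on opposite strands may not be told apart. Rows that name no gene held 21.6% (vehicle) and 20.2% (brequinar) of reads and were left out, of which multimapping reads made 7.39% and 6.92% of all reads.

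Symbols, positions and exon lengths came from GENCODE M21 (GRCm38, the assembly that mm10 names). A model was found for 44671 of 45318 identifiers. TMM factors from edgeR 4.0.16 (R 4.3.3) scaled the counts, which shifted log2 ratios by 0.092 against total counts. Genes entered at a mean CPM of 1 or more, so a gene could enter through its high library alone. No test between treatments was possible with 1 library each. Ratio intervals were exact (Clopper-Pearson, 95%), conditional on the summed count, and intervals of levels were exact Poisson. Levels per kilobase used the union of annotated exons. Python 3.11.15, scipy 1.17.1 and DESeq2 1.42.0 (size factors only) were also used. The procedure was tried on simulated counts with counting error only, which hold no variation between mice or preparations.

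The members and lists were chosen with earlier results of these data known. All 10 members are named. Of each pathway list, up to 5 measured genes with the largest absolute log2 ratio are named, with Tlr3, Tlr5, Tlr11, Tlr12, Ly96, Cd14, Unc93b1, Myd88, Irak3 and defining cell markers whatever their values. The value of 1 marker under this rule is not reported here. Others were named after their values were seen. Of the pathway lists, these were Hsp90b1, Cnpy3, Rnaset2a, Acod1, Il1a, Il6, Il12b, Ifnb1, Ccl3, Ccl4, Ccl5 and Cd40. Of the cell markers, they were the named macrophage markers other than C1qa, the called monocyte markers, Cd79b, Klk1, Runx2, Bst2, Itga2b and Nkg7. Xist, Ddx3y and neighbours of members were named in the same way. Triad3 was not found under that name. It is an alias of Rnf216, which the same list holds.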

Additional observations from a re-analysis of the deposited data

How the results depend on the processing

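Across 4 other scalings (upper quartile, size factors of DESeq2, library totals, and totals that leave out the 50 most abundant genes) and prior counts of 0.5 and 5, the same 3 members were higher and the same 3 lower. The log2 ratios ran from 2.71 to 2.81 for Tlr13, 2.17 to 2.27 for Tlr2, 1.16 to 1.27 for Tlr8, 0.88 to 0.98 for Tlr7, 0.59 to 0.68 for Tlr4, -0.21 to -0.12 for Tlr6, -0.30 to -0.20 for Tlr1, -1.70 to -1.59 for Cd180, -2.03 to -1.86 for Tlr9 and -3.14 to -3.02 for Ly86. At 1.5-fold, 5 members were higher, with Tlr4 and Tlr7 added. Tlr8 dropped out at 3-fold and when the whole interval had to lie beyond 2-fold, and Tlr8 and Tlr9 dropped out with a minimum of 5 CPM. Over all genes, 2470 were higher and 2074 lower with no filter, 457 and 230 at 5 CPM, 1456 and 1463 at 1.5-fold, 390 and 161 at 3-fold, and 288 were lower with whole intervals beyond 2-fold.

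With no filter, the lists held 2 higher genes among the other Toll-like receptors (median log2 ratio 0.54), 2 higher and 2 lower among endolysosomal enzymes, 1 lower among adaptors and kinases, 4 higher among negative regulators (median 0.39) and 14 higher among response genes. At 5 CPM, 0 were higher among the other Toll-like receptors, 0 among co-receptors, 0 among endolysosomal enzymes and 0 among adaptors and kinases, 0 negative regulators were lower, and 5 response genes were higher. These follow from the genes that each filter admits. With total counts, the median log2 ratio was 0.059 for co-receptors, 0.083 for adaptors and kinases (1 lower) and 0.23 for negative regulators (0 higher). Without the most abundant genes in the total, the negative regulators had a median of 0.24 (0 higher). Medians of marker lists changed sign for monocytes (-0.031 with total counts, -0.018 without the most abundant genes, -0.34 at 5 CPM), B cells (-1.41 at 5 CPM), conventional dendritic cells (0.070 with no filter) and T and NK cells (0.20 with no filter).

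The ratio of Cd180 to Ly86 per kilobase was 0.178 in vehicle and 0.482 in brequinar with principal transcripts, an alternative chosen after seeing the data. No paired analysis was possible because each treatment has 1 library, and for the same reason no leave-one-out was run. Depth limits Tlr3, Tlr11 and Tlr12, and gives Tlr8 and Tlr9 the widest intervals among the members.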

Other observations

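A pair of further gene groups share their signalling with the Toll-like receptors or their purpose, and both lists were drawn up after the data were seen. Their counts are read beside 6.45% higher and 4.40% lower over all measured genes. The signalling receptors of the interleukin 1 family use the same TIR domain and Myd88, and the list also holds a decoy receptor. Of 8 listed, 6 had a mean of at least 1 CPM, and 2 of them were higher in the brequinar library while none was lower, at a median log2 ratio of 0.81. Il1r2, the decoy receptor for interleukin 1, stood at 2.203 and 17.8 CPM, a ratio of 8.06 (interval 6.60 to 9.94). Il18rap, the accessory chain of the interleukin 18 receptor, stood at 50.9 and 173 CPM, a ratio of 3.40 (interval 3.25 to 3.55). Il1r1, the signalling receptor for interleukin 1, stood at 1.72 and 3.04 CPM, and its accessory chain Il1rap at 30.3 and 37.0 CPM, both within 2-fold.

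Cytosolic sensors of microbial products mostly lay within 2-fold. Of 15 measured, 2 were higher and none was lower, beside 6.45% higher and 4.40% lower over all measured genes. The median log2 ratio was 0.36. Zbp1, a sensor of Z-form nucleic acid, stood at 9.62 and 38.3 CPM (ratio 3.98, interval 3.59 to 4.41). Nod1, a sensor of bacterial peptidoglycan, stood at 12.8 and 34.6 CPM (ratio 2.72, interval 2.48 to 2.98). The RNA sensors Ddx58 (RIG-I; 25.5 and 43.4 CPM) and Ifih1 (MDA5; 48.7 and 75.8 CPM) and the DNA sensor Aim2 (28.8 and 21.4 CPM) differed by less than 2-fold.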
